A study of Saccharomyces cerevisiae with 15 samples.

Results

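The genes that encode the proteins of the cytosolic ribosome were followed in *Saccharomyces cerevisiae* strains that lack a subunit of TREX-2, the complex at the nuclear pore that links transcription to mRNA export. They were chosen by name, as every gene whose symbol is RPL or RPS followed by a number and, for duplicated genes, the letter A or B. This gave 142 probe sets of the 5900 on the array, which stand for 122 of the 5449 genes measured, 70 of the large (RPL) and 52 of the small (RPS) subunit. Of the 132 genes with such a name in the reference annotation, 10 had no probe set under their own symbol and were not analysed here. The measured genes lie on 15 chromosomes.

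The arrays were of total RNA from cells in mid-log phase in rich medium (YPD), with 3 arrays for each of 5 strains. The *sac3Δ* strain Y03517 was compared with its wild type BY4741 (his3Δ1 leu2Δ0 met15Δ0 ura3Δ0), and the *thp1Δ* strain Y11764 and the *sus1Δ* strain Y17455 with BY4742 (his3Δ1 leu2Δ0 lys2Δ0 ura3Δ0). In each mutant the gene had been replaced by KanMX, and each mutant is 1 strain of a deletion collection. The *thp1Δ* and *sus1Δ* comparisons share the same 3 BY4742 arrays. The labels call the arrays biological replicates without naming separate cultures, so p-values measure the spread between these arrays.

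Ribosomal proteins are made in near equal amounts for assembly with ribosomal RNA, and their genes are among the most transcribed of growing yeast. The transcription factors Rap1, Fhl1 and Ifh1 act together on most of their promoters. Many of these genes were kept as pairs, named A and B, after an ancient duplication of the genome, and the proteins of a pair are identical or nearly so. A few of the proteins act on their own transcripts: Rpl22, Rps14 and Rps9 on splicing, and Rps28 on the decay of *RPS28B* mRNA.

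Values are intensities in arbitrary units (A.U.) on a linear scale, and differences are given as log2 fold change ± standard error. The deleted gene read 15.4 to 16.8 A.U. for *SAC3* in *sac3Δ* (BY4741, 1302 to 1593), 13.7 to 19.9 for *THP1* in *thp1Δ* (BY4742, 1341 to 1466) and 19.0 to 22.8 for *SUS1* in *sus1Δ* (BY4742, 763 to 986). The labels give MATa for BY4741 and BY4742. The 6 **a**-cell markers read 102 to 918 A.U. in BY4742 against 2447 to 11520 in BY4741. The α-cell genes *STE3* and *SAG1* read 6941 and 11480 in BY4742, 8574 and 17810 in *thp1Δ* and 9322 and 16790 in *sus1Δ*. They read 410 and 808 in BY4741 and 186 and 996 in *sac3Δ*. *MF(ALPHA)1* and *MF(ALPHA)2* had no value in BY4742. By *STE3* and *SAG1*, BY4742 read as α cells, unlike its label, so the comparison of the wild types is also one of mating types. Ribosomal protein genes gave some of the brightest signals, with a median over single values of 14050 A.U. (1870 to 23660), while the median over all probe sets of an array was 1260 to 1460 A.U.

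One array stood apart for these genes. In BY4741 replicate 3 the deposited table held no value for 63 of the 142 ribosomal protein probe sets (44.4%), against 14.6% of all probe sets, and the brightest value on it was 18920 A.U. The other 14 arrays lacked 1 such value in all, in *sac3Δ* replicate 3. The ribosomal protein genes that did have a value in BY4741 replicate 3 were low there, with a median of -0.17 on the log2 scale from the group mean. *sac3Δ* values are therefore given with and without this array where it bears on them, and for 57 genes the BY4741 mean rests on 2 arrays in any case.

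As a group, ribosomal protein genes were slightly lower in *thp1Δ* and *sus1Δ*. The fall was larger at the median in *thp1Δ* and held in more of the genes in *sus1Δ*. The *sac3Δ* arrays lay below BY4741 replicates 1 and 2 but above its replicate 3, the array with many empty values. The median change of the 122 in *thp1Δ* was -0.11 while that of all tested genes was 0.06, and 97 of 122 were below 0. In *sus1Δ* the medians were -0.07 and 0.03, and 105 of 122 were below 0. In *sac3Δ* they were -0.02 and 0.06, with 73 of 122 below 0. Without BY4741 replicate 3 the *sac3Δ* median was -0.05. Between the wild types BY4742 and BY4741 the medians were 0.01 and -0.01, and without BY4741 replicate 3 they were -0.03 and -0.02.

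**Figure D1:**
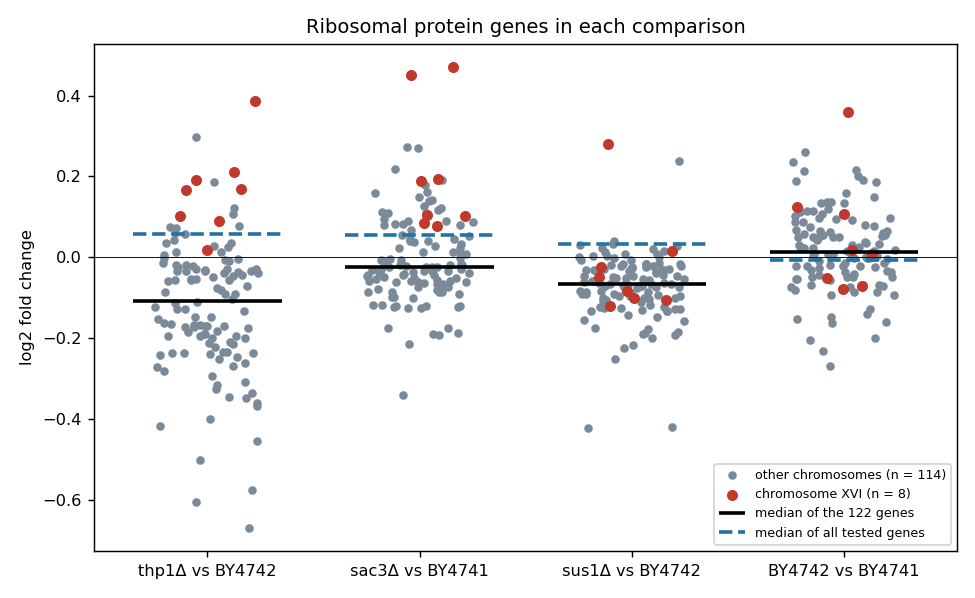
Log2 fold change of the 122 ribosomal protein genes (1 point a gene) in each comparison, with the genes on chromosome XVI in red, the median of the 122 genes as a black line and the median of all tested genes as a dashed blue line. In *thp1Δ* the black line lies at -0.11 and the blue one at 0.06, and the 8 red points lie above 0.

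The shift was present in each *thp1Δ* and *sus1Δ* array. Relative to all genes, the ribosomal protein genes were at -0.17, -0.21 and -0.12 in the 3 *thp1Δ* arrays and at -0.10, -0.10 and -0.10 in the 3 *sus1Δ* arrays, while the BY4742 arrays lay between -0.02 and 0.02. The 3 *sac3Δ* arrays were at -0.08, -0.05 and -0.10, while BY4741 replicates 1, 2 and 3 were at 0.04, 0.01 and -0.15. They were thus within the span of BY4741 only through its replicate 3. Without that array the *sac3Δ* median relative to all genes was -0.10, beside -0.10 in *sus1Δ*. Large and small subunit genes had the same medians in each mutant within 0.01 (-0.11 and -0.11 in *thp1Δ*, -0.02 and -0.03 in *sac3Δ*, -0.06 and -0.07 in *sus1Δ*). The scaling of the arrays bears on the sign of small changes. When the array medians were set equal, the median gene moved by -0.15 in *thp1Δ*, -0.13 in *sac3Δ* and -0.08 in *sus1Δ*, and the position relative to the median gene does not depend on this shift. On that measure 106 of 122 ribosomal protein genes lay below the median gene in *thp1Δ*, 118 in *sus1Δ* and 88 in *sac3Δ* (106 without BY4741 replicate 3). With quantile normalisation these counts were 97, 105 and 70.

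**Figure D2:**
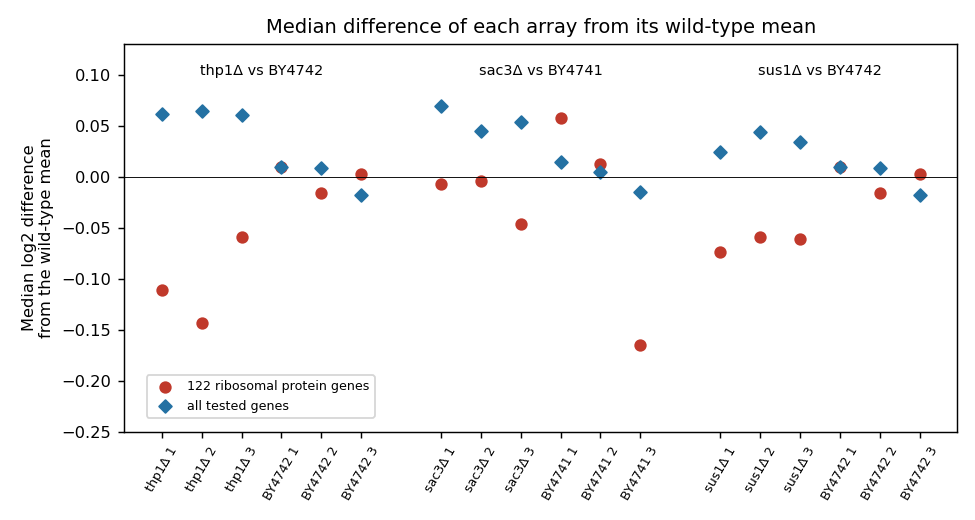
Median log2 difference of each array from the mean of its wild type, for ribosomal protein genes (red circles) and for all tested genes (blue diamonds), over genes with a value. The red circles of the *thp1Δ* and *sus1Δ* arrays lie below 0 and the diamonds above it, and BY4741 replicate 3 has the lowest red circle, at -0.17.

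To be called, a gene needed an adjusted p under 0.05 (limma, Benjamini-Hochberg over all genes tested), a fold of at least 1.5 and means that differed by over 100 A.U. By this rule 2 ribosomal protein genes fell in *thp1Δ*, *RPL22B* and *RPS28B*, beside 6.17% of all tested genes, and none rose, beside 14.9%. The shares of all genes, here and below, include chromosome XVI. Of its other genes, 321 of 331 were above 0 in *thp1Δ* and 318 of 332 in *sac3Δ*. In *sac3Δ* and *sus1Δ* limma called none in either direction, where the shares of all genes called higher and lower were 8.84% and 3.25% in *sac3Δ* and 3.46% and 1.39% in *sus1Δ*. At an unadjusted p under 0.05 there were 5 higher (33.0% of all genes) and 10 lower (20.8%) in *sac3Δ* and 2 higher (24.0%) and 23 lower (15.2%) in *sus1Δ*, and the criteria of the study's methods, with an unadjusted p and the same fold, also called none in these 2 mutants. The 2 wild types had no called gene (background 0.909% and 0.163%), and none at the adjusted p alone by limma (background 2.24% and 1.79%), with 1 gene higher (9.25%) and 6 lower (11.1%) at an unadjusted p.

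With the adjusted p alone, and no minimum fold, the count of genes that fell in *thp1Δ* was 53 (43.4% of the 122), of which 29 were of the large and 24 of the small subunit, beside 25.4% of all tested genes. Their median was -0.23. In the same test 6 genes rose, beside 36.4% of all genes. At an unadjusted p the counts were 54 (27.0%) and 6 (38.6%). *sus1Δ* had 7 lower (background 11.3%) and 1 higher (18.1%), and *sac3Δ* 6 lower (16.8%) and 4 higher (27.9%). The *sac3Δ* counts depend on BY4741: they were 18 lower and 2 higher without its replicate 3, 2 lower and 9 higher without its replicate 1, and 0 and 0 when only the 6 arrays of that comparison were fitted. A fit on 6 arrays in *sus1Δ* gave 42 lower and 2 higher.

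The arrays can also be set side by side without a model. All 3 *thp1Δ* arrays lay below all 3 BY4742 arrays in 69 of the 122 genes (background 32.9%) and above them in 14 (44.6%). For *sus1Δ* the counts were 77 (26.8%) and 5 (39.0%), against the same BY4742 arrays. For *sac3Δ* they were 34 (18.3%) and 10 (26.9%), and all 8 members on chromosome XVI were among these 10. Between the wild types, BY4742 lay below BY4741 in 29 genes (16.2%) and above it in 17 (12.7%). BY4741 replicate 3 had no value for 57 of the 122 genes, so fewer BY4741 arrays were compared there, which makes non-overlap easier. As it lacked only 14.6% of all probe sets, the counts against BY4741 and their backgrounds are not like for like. Ribosomal protein genes varied little between arrays of 1 strain, with a median SD of 0.02 to 0.04 (log2) in all strains but BY4741, where it was 0.08.

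Among the brightest probe sets of each gene, the 1 that fell furthest in *thp1Δ* was that of *RPL22B*, the minor copy for Rpl22 of the large subunit. It read 4510, 4108 and 4160 A.U. in BY4742, 2753, 2608 and 2668 in *thp1Δ* and 2989, 3417 and 3142 in *sus1Δ*. Every array of both mutants was below every BY4742 array. The change was -0.67 ± 0.10 in *thp1Δ* (adjusted p = 7.3e-05, limma) and -0.42 ± 0.10 in *sus1Δ* (adjusted p = 0.0066, limma, under the minimum fold). In *sac3Δ* it read 3858, 4277 and 3529 A.U., which overlapped the BY4741 values of 4930, 3743 and 4036. Its partner *RPL22A* changed by -0.18 ± 0.05 in *thp1Δ* (adjusted p = 0.0062, limma).

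*RPS28B*, whose mRNA is known to be destabilised by its own protein, read 9965, 10197 and 10370 A.U. in BY4742, 7147, 6334 and 6592 in *thp1Δ* and 7563, 7286 and 7958 in *sus1Δ*. The groups again did not overlap. The change was -0.61 ± 0.09 in *thp1Δ* (adjusted p = 7.4e-05, limma) and -0.42 ± 0.09 in *sus1Δ* (adjusted p = 0.0037, limma). The *thp1Δ* call was lost without *thp1Δ* replicate 2, where the change was -0.57 and the fold under 1.5. The other copy, *RPS28A*, read 12326, 11986 and 12233 A.U. in BY4742 and 13034, 12752 and 13619 in *thp1Δ*, above the wild type in each array, at 0.11 ± 0.06 (adjusted p = 0.11, limma).

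Other genes fell in *thp1Δ* without reaching the fold of 1.5. *RPS7B*, for a small subunit protein, read 11525, 11331 and 11695 A.U. in BY4742 and 8650, 7545 and 7053 in *thp1Δ*, at -0.58 ± 0.10 (adjusted p = 0.00028, limma). *RPL13A*, of the large subunit, read 11030, 11656 and 11312 A.U. against 8872, 7604 and 7575, at -0.50 ± 0.07. All *thp1Δ* arrays were below all wild-type arrays in both genes. *RPL9A* changed by -0.46 ± 0.05 and *RPS1A* by -0.42 ± 0.06, and *RPS27A* followed at -0.40 ± 0.07. With array medians set equal, *RPS7B*, *RPL13A* and *RPL9A* reached it and were also called.

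Among the same probe sets, that of *RPL13A* had the largest fall in *sac3Δ*, where it read 10169, 9786 and 11014 A.U. against 13333 and 12797 in the 2 BY4741 arrays with a value (-0.34 ± 0.08, adjusted p = 0.0040, limma). The groups did not overlap. Among the other genes that fell at the adjusted p in *sac3Δ* were *RPS22A* (-0.22), *RPS0B* (-0.19), *RPS1A* (-0.19) and *RPL8A* (-0.18). In *sus1Δ* they were *RPL22B*, *RPS28B*, *RPS27A* (-0.25), *RPL9A* (-0.22), *RPL34A* (-0.22), *RPS10B* and *RPS25B*.

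*RPL9B* was the 1 member that rose in *sus1Δ* at the adjusted p as deposited, and none did with array medians set equal or with quantile normalisation. It read 6145, 5505 and 6209 A.U. in BY4742 and 7063, 7145 and 6848 in *sus1Δ* (0.24 ± 0.06, adjusted p = 0.013, limma), with no overlap, while its partner *RPL9A* fell. In *thp1Δ* it read 5701, 5835 and 5319 A.U., overlapping the wild type.

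*RPS14B*, whose unspliced transcript is bound by its own protein, was the 1 gene whose response differed between *thp1Δ* and *sac3Δ* by the calling rule (background 6.41%, or 3.18% lower in *thp1Δ* and 3.23% higher). It read 5829, 5471 and 5727 A.U. in BY4742 and 4648, 3937 and 4845 in *thp1Δ* (-0.35 ± 0.09, adjusted p = 0.0036, limma). In BY4741 it read 6013, 5440 and 4880 A.U. and in *sac3Δ* 6939, 6487 and 6222 (0.27 ± 0.09, adjusted p = 0.022, limma). All *thp1Δ* arrays were thus below their wild type and all *sac3Δ* arrays above theirs, and the difference of the responses was -0.62 ± 0.12 (adjusted p = 0.0059, limma). Without BY4741 replicate 3 the *sac3Δ* change was 0.19 (adjusted p = 0.082) and the difference of the responses -0.54, under the minimum fold. At the adjusted p alone 8 genes had a lower response in *thp1Δ* than in *sac3Δ* (background 9.3%), among them *RPL22B*, *RPS28B* and *RPL9A*, and by limma none had a higher one (12.0%). At an unadjusted p these counts were 21 (16.0%) and 0 (20.2%).

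Between *thp1Δ* and *sus1Δ* limma called no difference among the 122 genes (background 17.2%, or 11.4% higher and 5.79% lower). At the adjusted p alone 9 genes were higher in *thp1Δ* (29.0%) and 22 lower (25.1%), and at an unadjusted p 11 (31.8%) and 32 (27.7%). Of the 9 higher genes 5 lie on chromosome XVI, and of the 22 lower ones none do.

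**Figure D3:**
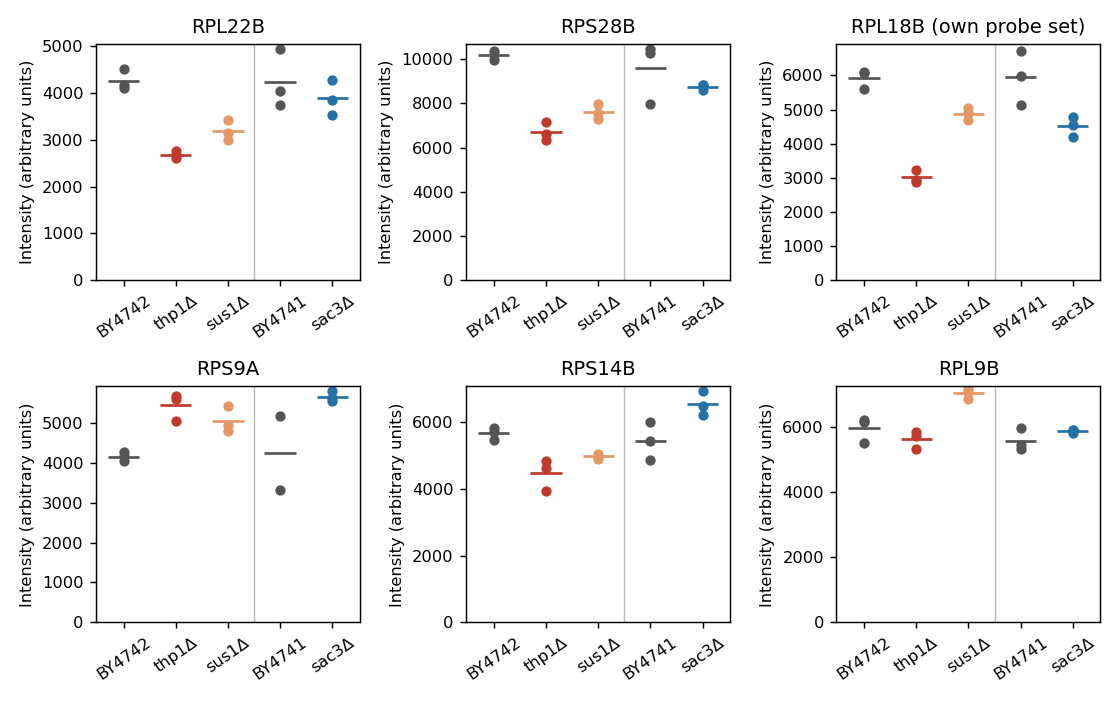
Intensity (A.U.) of 6 ribosomal protein genes in the 3 arrays of each strain (points, with the mean as a line), strains of BY4742 background left of the grey line and those of BY4741 background right of it. *RPL22B* and *RPS28B* lie below BY4742 in all *thp1Δ* and *sus1Δ* arrays, and RPL18B's own probe set lies between 2865 and 3237 A.U. in *thp1Δ* against 5612 to 6089 in BY4742.

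Of the 6 members that rose in *thp1Δ* at the adjusted p, 5 lie on chromosome XVI, and the exception is *RPL15B* on chromosome XIII (0.30 ± 0.11). The 8 members on this chromosome were *RPL5*, *RPL11A*, *RPL21B*, *RPL33A*, *RPL36B*, *RPL43A*, *RPS9A* and *RPS23B*. Their median was 0.17 in *thp1Δ* (0.02 to 0.39), 0.15 in *sac3Δ* (0.08 to 0.47) and -0.07 in *sus1Δ*, whereas the 114 members elsewhere had medians of -0.13, -0.03 and -0.07. All tested genes off chromosome XVI had medians of 0.02, 0.03 and 0.03. Among the 114, *RPL11B*, *RPL21A* and *RPS23A* were read by probe sets that can also match a copy on chromosome XVI. *RPL1A*, *RPL7B* and *RPS6A*, also on this chromosome, had no probe set under their own symbol, and their partners count among the 114. The other genes of chromosome XVI had medians of 0.87 in *thp1Δ* and 0.52 in *sac3Δ*. Those among them with a wild-type mean over 8000 A.U. had medians of 0.53 (11 genes) and 0.22 (14 genes), and genes this bright on other chromosomes, ribosomal protein genes left out, 0.05 (206 genes) and 0.01 (210 genes). All 8 members were above 0 in both mutants as deposited, but 5 in *thp1Δ* and 4 in *sac3Δ* when array medians were set equal. Relative to the median gene, 7 in *thp1Δ* and 8 in *sac3Δ* were higher under both of these scalings. The part of the whole chromosome in the members' values was not tested.

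*RPS9A*, for a small subunit protein near the decoding site, had the largest rise of these. It read 4161, 4030 and 4262 A.U. in BY4742 and 5671, 5591 and 5033 in *thp1Δ* (0.39 ± 0.13, adjusted p = 0.018, limma), with no overlap. In *sac3Δ* it read 5538, 5622 and 5787 A.U., but the 2 BY4741 arrays with a value differed, at 5157 and 3304 (0.45 ± 0.14, adjusted p = 0.019, limma). Without BY4741 replicate 1 only the array at 3304 was left, so the run without it rests on 1 wild-type array for this gene. In *sus1Δ* it read 4934, 5409 and 4798 A.U., also above BY4742 in each array (0.28 ± 0.13, adjusted p = 0.12, limma). *RPL5*, whose protein carries 5S ribosomal RNA into the ribosome, read 18605, 19014 and 18407 A.U. in BY4742 and 21597, 21501 and 21808 in *thp1Δ* (0.21 ± 0.04, adjusted p = 0.0011, limma).

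*RPL11A*, for the protein that joins Rpl5 on 5S RNA, had the largest *sac3Δ* value, 0.47 ± 0.19 (adjusted p = 0.056, limma). It read 10413, 10829 and 10561 A.U. in *sac3Δ* and 9799, 9335 and 4886 in BY4741. The value rests on the low replicate 3 of BY4741: without it the change was 0.15 (adjusted p = 0.043). *RPL36B* and *RPL43A*, which rose in *sac3Δ* at 0.19 each, were at 0.11 and 0.10 without that array (adjusted p = 0.061 and 0.080).

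Both copies had a probe set of their own in 47 pairs, so that the change of A could be set against that of B within each array. This leaves out a constant scaling of the array, but not a scaling that depends on intensity. In 7 of these pairs 1 copy is on chromosome XVI. In *thp1Δ* that copy was higher against its partner in 7 of 7 pairs, by 0.29 ± 0.16 on average (SD over the 7 pairs, log2), and the mean over the 7 pairs was 0.28 to 0.31 in the 3 *thp1Δ* arrays while the BY4742 arrays lay from -0.01 to 0.00. In *sac3Δ* it was also higher in 7 of 7, by 0.19 ± 0.17, with arrays at 0.16 to 0.24 against -0.03 to 0.03 in BY4741. BY4741 replicate 3 lacked at least 1 copy of every pair and gave no value. In *sus1Δ* the copy was higher in 3 of 7 (0.03 ± 0.17) and between the wild types in 3 of 7 (0.01 ± 0.14).

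By pair, the difference in *thp1Δ* was 0.52 ± 0.08 for *RPS9*, 0.39 ± 0.02 for *RPL36*, 0.38 ± 0.03 for *RPL21*, 0.34 ± 0.04 for *RPL33*, 0.20 ± 0.04 for *RPL43*, 0.16 ± 0.05 for *RPL11* and 0.06 ± 0.05 for *RPS23*, each as the copy on chromosome XVI over the other. Only in *RPS23* did the arrays of the mutant and the wild type overlap. With 3 arrays a side the exact two-sided permutation test cannot go below p = 0.1, which is the value of each of the other 6 pairs. In *sac3Δ*, against 2 BY4741 arrays, the differences were 0.54 ± 0.30 for *RPS9*, between 0.11 and 0.20 for 5 pairs, with no overlap, and 0.01 ± 0.07 for *RPL43*, where the arrays overlapped.

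**Figure D4:**
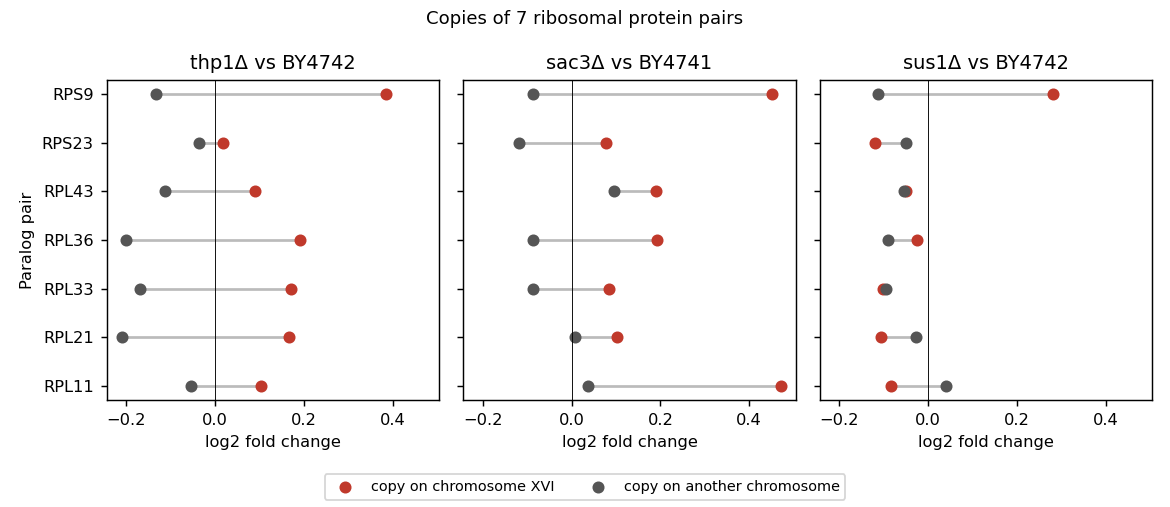
Log2 fold change of both copies of the 7 ribosomal protein pairs with 1 copy on chromosome XVI (red, the copy on XVI, and grey, the other copy) in each mutant. Red lies to the right of grey in all 7 pairs in *thp1Δ* and *sac3Δ*, and the gaps of *RPL11*, *RPL36* and *RPL43* in *sac3Δ* include the low BY4741 replicate 3 for the copy on XVI only (*RPL43* differed by 0.01 on arrays with both copies).

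Among the 40 other pairs, some copies also parted. The largest difference in *thp1Δ* was that of *RPS28*, with A over B at 0.71 ± 0.06, followed outside chromosome XVI by *RPL22* (0.48 ± 0.06) and *RPS27* (-0.41 ± 0.07). *RPS27A* read 12006, 11671 and 12143 A.U. in BY4742 and 9736, 8394 and 9059 in *thp1Δ*, while *RPS27B* read 14296, 14370 and 13753 against 14038, 13896 and 14897, so that the A copy alone was outside the wild-type range. The same 3 pairs were among the 6 largest in *sus1Δ*, at 0.33 ± 0.05, 0.34 ± 0.08 and -0.27 ± 0.04, but these 2 comparisons share their wild-type arrays. The largest of *sus1Δ* was *RPL9* (-0.46 ± 0.04), followed by *RPS9* (0.39 ± 0.07). In *sac3Δ* the largest after *RPS9* (0.54 ± 0.30) were *RPS22* (-0.27 ± 0.11), *RPS1* (-0.27 ± 0.16) and *RPS14* (-0.25 ± 0.08), and *RPS28* (0.23 ± 0.15) overlapped the wild type. Of these, *RPS1* and *RPS28* had a value in BY4741 replicate 3, and without that array *RPS1* was at -0.11 ± 0.02 and *RPS28* at 0.10 ± 0.14.

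Over all 47 pairs, the arrays of mutant and wild type did not overlap in 35 pairs in *thp1Δ*, 24 in *sac3Δ* and 26 in *sus1Δ*, and in 24 between the wild types. Only 15 pairs had a value in BY4741 replicate 3. The others rest on fewer BY4741 arrays, where non-overlap is easier, so the counts with BY4741 do not compare directly with those of *thp1Δ* and *sus1Δ*. The median size of the difference was 0.13, 0.10 and 0.07 in the mutants and 0.08 between the wild types. Both copies moved the same way in 35, 26 and 39 of 47 pairs.

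The probe sets themselves set a limit. Of the 142, 113 have the suffix _at, 23 _s_at and 6 _x_at, and the last 2 kinds hold probes that can match more than 1 transcript, so that they can read both copies. For 9 genes no other set was present, and for 26 genes the brightest set, used for the gene, was of this kind. In the 20 genes with both kinds, the own set was lower than the shared set in 16 in *thp1Δ*, with medians of -0.19 and -0.04. In *sac3Δ* it was lower in 15 (-0.02 and 0.00) and in *sus1Δ* in 11 (-0.10 and -0.05).

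The gap was widest for *RPL18B*, for a large subunit protein. Its own set read 6089, 5612 and 6080 A.U. in BY4742, 3237, 2950 and 2865 in *thp1Δ* and 4903, 5044 and 4687 in *sus1Δ*. In *thp1Δ* the change was -0.98 ± 0.09 (adjusted p = 1.5e-06 over all probe sets, limma), larger than that of any of the 122 sets used for the genes. In *sus1Δ* it was -0.28 ± 0.09 (adjusted p = 0.034, limma). In *sac3Δ* the own set read 4546, 4781 and 4188 A.U. against 6727, 5973 and 5140 in BY4741 (-0.39 ± 0.09, adjusted p = 0.0034, limma). All mutant arrays lay below their wild type. The shared set of *RPL18B* read 20237, 20080 and 20101 A.U. in BY4742 and 19580, 19403 and 20255 in *thp1Δ*, with overlap (-0.03 ± 0.04). *RPL14B* (-0.40 against -0.10), *RPS19B* (-0.30 and -0.01) and *RPS18B* (-0.30 and -0.04) showed the same order in *thp1Δ*, and *RPS24A* the opposite one (-0.06 and -0.19). When every probe set was tested on its own, 3 of the 142 fell by the calling rule in *thp1Δ* and 62 of the 142 at the adjusted p alone. The share over all probe sets was not counted, so these counts have no background.

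**Figure D5:**
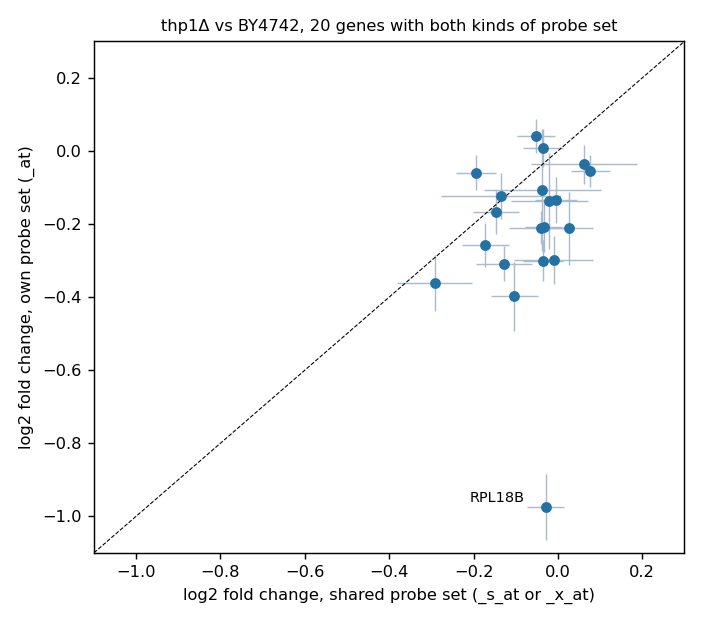
Log2 fold change in *thp1Δ* of the own probe set (vertical axis) against the shared probe set (horizontal axis) of the 20 genes with both kinds (bars, standard error), with equality as a dashed line. Of the 20 points 16 lie below the line, *RPL18B* furthest, at -0.98 against -0.03.

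Genes that act with the ribosomal protein genes were read from fixed lists. The 6 genes of the ribosomal stalk and of Asc1 had no called change in any mutant by limma. In *thp1Δ*, 1 fell at the adjusted p alone, *RPP2A* (-0.17), beside 25.4% of all genes. Of 14 regulators of these genes tested in *thp1Δ*, 1 rose by the calling rule (*IFH1*, background 14.9%) and 1 fell (*DOT6*, 6.17%). *IFH1*, the coactivator of ribosomal protein genes, read 1291, 1616 and 1345 A.U. in BY4742 and 2566, 3491 and 2792 in *thp1Δ* (1.05 ± 0.20, adjusted p = 0.00063, limma). It was called higher in *sac3Δ* as well (0.77 ± 0.20, adjusted p = 0.0082, limma, background 8.84%). *DOT6*, a repressor of ribosome biogenesis genes, was at -0.67 ± 0.08 in *thp1Δ* (adjusted p = 2.5e-05, limma). *FHL1*, on chromosome XVI and the partner of Ifh1, was at -0.54 ± 0.15 in *thp1Δ*, under the minimum fold.

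Of 9 dedicated chaperones, which bind single ribosomal proteins before assembly, 2 fell in *thp1Δ* by the calling rule (background 6.17%) and limma called none in *sac3Δ* (3.25%) or *sus1Δ* (1.39%). At the adjusted p alone 6 fell (background 25.4%) and 1 rose (36.4%) in *thp1Δ*, and 1 rose in *sac3Δ* (27.9%). The 1 that rose was *YAR1*, the chaperone of Rps3, which lies on chromosome XVI (0.52 ± 0.07 in *thp1Δ*, adjusted p = 5.5e-05, and 0.58 ± 0.07 in *sac3Δ*, adjusted p = 5.7e-05, limma). *BCP1*, the chaperone of Rpl23, read 2514, 2491 and 2576 A.U. in BY4742 and 1506, 1411 and 1258 in *thp1Δ* (-0.87 ± 0.09, adjusted p = 5.4e-06, limma). *RRB1*, the chaperone of Rpl3, read 5638, 5623 and 5801 A.U. against 3351, 3249 and 3276 (-0.79 ± 0.12, adjusted p = 9.3e-05, limma). Neither gene overlapped its wild type. Of the 6 genes known for feedback on their own mRNA, 2 fell in *thp1Δ* by the calling rule, *RPL22B* and *RPS28B* (background 6.17%). At the adjusted p alone *RPS14B* (-0.35) and *RPS9B* (-0.13) fell as well (background 25.4%) and *RPS9A* rose (0.39, background 36.4%). *RPL30* was at -0.03 (adjusted p = 0.81, limma). That list was drawn up with these results known and is not independent evidence.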

How the data were processed

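RNA of 15 samples was hybridised to Affymetrix yeast arrays, 1 array a sample. Per the study's methods, the authors normalised the arrays in dChip by the invariant-set method and computed a model of the perfect-match probes, with outliers left empty, and the deposited values are these intensities, on a linear scale (dChip version not given in the sources used here). The log2 intensities of the 5 groups were fitted here with limma 3.58.1 in R 4.3.3 (lmFit, eBayes), with 3 arrays a group and empty values left out. All comparisons thus share 1 estimate of the spread of a gene, in which BY4741 takes part. Arrays carry no read depth, and their number limits the precision. Genes under 600 A.U. in at least 50% of the 6 arrays of a comparison were left out, which removed no ribosomal protein gene. The probe set with the highest mean stood for a gene, and p-values were adjusted over all genes tested. The difference between responses was a contrast in the same fit. Pair differences were tested by exact permutation. Gene names came from the platform annotation, and 402 probe sets had none. Named were called members, the 6 largest rises and falls a mutant, members on chromosome XVI with their partners, the 6 largest pair differences a mutant, and called genes of the lists, of which some items are not reported here. The members and lists were chosen with earlier results of these data known. The fit was tested on simulated data. Alternatives changed the scaling, filter, offset, probe set, fold, arrays and replicate block. No sequence is shown.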

Additional observations from a re-analysis of the deposited data

Results flagged for a closer look

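The responses of 2 ribosomal protein genes differed between mutants by a test of the difference itself. For *RPL18B*, read by its own probe set, the *thp1Δ* response minus the *sus1Δ* response was -0.694 on the log2 scale (SE 0.09, adjusted p = 3.6e-05 over all probe sets, limma). It stayed past the threshold in each alternative run for it, with an adjusted p of at most 0.00031. Some of these could not move the value: BY4742 cancels from the difference, and every probe set was tested. They are the runs without a BY4742 array, with the dimmest probe set per gene and without chromosome XVI. For *RPS14B*, the *thp1Δ* response minus the *sac3Δ* response was -0.618 (SE 0.12, adjusted p = 0.0059, limma). The fold fell under 1.5 without BY4741 replicate 3 (-0.54), without *sac3Δ* replicate 1 (-0.58) and without *thp1Δ* replicate 2 (-0.53), while the adjusted p was between 0.0016 and 0.018 over the alternatives run.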

How the results depend on the processing

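The medians of the 3 mutants were below 0 under the alternatives run, except that of *sac3Δ* without BY4741 replicate 1, which was 0 to 3 decimals, while that between the wild types, 0.013, was -0.003 with quantile normalisation and -0.029 without BY4741 replicate 3. With array medians set equal, *thp1Δ* had 5 called lower and, at the adjusted p alone, 0 higher and 95 lower (median -0.256). *sac3Δ* had 0 and 61 (-0.144), and *sus1Δ* 0 and 39 (-0.145). With quantile normalisation *thp1Δ* had 4 called lower, 3 higher at the adjusted p alone and a median of -0.179, *sac3Δ* 1 higher and 23 lower, and *sus1Δ* 0 higher and 18 lower (median -0.094). With no fold minimum the calls were 6 higher and 53 lower in *thp1Δ*, 4 and 6 in *sac3Δ* and 1 and 7 in *sus1Δ*. Without chromosome XVI, 1 gene was higher at the adjusted p alone in *thp1Δ* and 1 in *sac3Δ*. A fit of the 6 arrays of a comparison gave 0 higher and 0 lower in *sac3Δ*, 2 and 42 in *sus1Δ* and 7 and 57 in *thp1Δ*. Shares over all genes were not counted under these alternatives, so their counts have no background beside them. With the dimmest probe set per gene, 1 difference between *thp1Δ* and *sus1Δ* was called. Tests of every probe set, the alternatives for counts at the adjusted p alone and pair differences without BY4741 replicate 3 were chosen after seeing the data.

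With each array left out in turn, called lower in *thp1Δ* ranged from 1 (without *thp1Δ* replicate 2) to 3, and called higher in *sac3Δ* from 0 to 2 (2 without BY4741 replicate 1, 1 without BY4741 replicate 2). Of the 2 without BY4741 replicate 1, *RPS9A* rested on 1 BY4741 array. At the adjusted p alone the ranges were 4 to 5 higher and 35 to 50 lower in *thp1Δ*, 2 to 9 higher and 2 to 18 lower in *sac3Δ* and 0 to 1 higher and 5 to 6 lower in *sus1Δ*. Medians ranged from -0.13 to -0.095 in *thp1Δ*, from -0.05 to 0 in *sac3Δ* and from -0.074 to -0.054 in *sus1Δ*, and called differences between *thp1Δ* and *sac3Δ* from 0 to 2. Of the values for single genes, 687 kept their side of the adjusted p threshold, 36 passed it and 61 no longer did. Genes that met it as deposited did not change direction, but direction was not counted for the others, and some of those changed sign.

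Replicate numbers are shared between groups, but same-numbered arrays did not deviate together in each pair of strains (correlations from -0.154 to 0.297), so no pairing was used. With the replicate block, *thp1Δ* had 2 called lower and 5 higher and 49 lower at the adjusted p alone (median -0.108), and the block changed no count by over 1.5 times.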
